A study of Mus musculus with 15 samples.

Results

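The Hox genes of paralogue groups 6 to 8 are the central part of the Hox clusters. The mouse has 8 of them, and each carried a probe under its own symbol on the arrays: Hoxa6, Hoxb6 and Hoxc6 of group 6, Hoxa7 and Hoxb7 of group 7, and Hoxb8, Hoxc8 and Hoxd8 of group 8. The rule goes by name and uses no measured value, and the set was picked with earlier results of these data known. The members are 8 of 25139 genes tested and of 31820 gene names on the array. Each was read by 1 probe in 1 spot, so no choice between probes was needed.

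The cells were mouse embryonic stem (ES) cells, pluripotent cells of the early embryo kept in culture, and their RNA was read on 1-colour arrays of 60-base probes. They carried either a control hairpin, shCTR, or the hairpin sh4, a short RNA that sets off interference against its target. Without treatment there were 4 shCTR and 4 sh4 samples, and after retinoic acid (1 µM for 72 hours) there were 4 shCTR and 3 sh4 samples, each labelled a biological replicate. The labels name no target for sh4 and give no culture time for the untreated cells. The series is titled for Phf19, a Polycomb-like protein that works with Polycomb repressive complex 2, and Phf19 was lower in sh4 by 1.73 ± 0.09 (SE) on the log2 scale untreated (limma, adjusted p = 7.4e-09) and by 0.88 ± 0.09 in retinoic acid (adjusted p = 1.9e-05). These samples hold a single hairpin beside the control, so an effect of this hairpin alone and an effect of its target cannot be told apart.

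Hox genes encode homeodomain transcription factors that give cells a position along the head-to-tail axis. They lie in 4 clusters, A to D, and within a cluster the genes nearest the 3′ end are switched on first, by retinoic acid among other signals, and in more anterior tissue. The genes of groups 6 to 8 pattern the trunk, at the level of the thorax. In ES cells the clusters carry the repressive histone mark H3K27me3, laid down by Polycomb repressive complex 2, and lose it as they are induced.

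The probes lay in all 4 clusters (positions in mm9, as the array files give them). The Hox A probes were at chr6:52158194-52158253 for Hoxa6 and chr6:52165626-52165685 for Hoxa7, both on the minus strand. The Hox B probes were on the plus strand at chr11:96162563-96162622 for Hoxb6, chr11:96151211-96151270 for Hoxb7 and chr11:96146576-96146635 for Hoxb8. The Hox C probes were at chr15:102842243-102842302 for Hoxc6 and chr15:102821238-102821297 for Hoxc8, and the Hoxd8 probe at chr2:74545171-74545230, all on the plus strand. The Hoxa6 probe is shown because it read the only member that passed the threshold in none of the 5 comparisons fitted over all 15 arrays. Its capitals, bases 36 to 47, are the codons of the core of the hexapeptide, the short motif before the homeodomain through which many Hox proteins bind Pbx partners, so the probe reads coding sequence.
Hoxa6 probe: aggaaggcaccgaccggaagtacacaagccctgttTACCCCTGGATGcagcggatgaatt

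RefSeq's promoter table (GRCm38.p6) held 4 of the 8 members, Hoxa6, Hoxa7, Hoxb8 and Hoxd8. The 250 bases before the start of Hoxb8 and of Hoxa7 are shown, the first for a member that rose in retinoic acid from signals mostly not well above background and the second for a member whose hairpin difference changed sign. Capitals mark TTTATG, a form of the site bound by Cdx factors, which act upstream of trunk Hox genes, and TATAAA, the TATA box, each on either strand. The Hoxb8 stretch is chr11:96281655-96281904 on the plus strand, and the Hoxa7 stretch is chr6:52218574-52218823 on the minus strand.
Hoxb8 promoter: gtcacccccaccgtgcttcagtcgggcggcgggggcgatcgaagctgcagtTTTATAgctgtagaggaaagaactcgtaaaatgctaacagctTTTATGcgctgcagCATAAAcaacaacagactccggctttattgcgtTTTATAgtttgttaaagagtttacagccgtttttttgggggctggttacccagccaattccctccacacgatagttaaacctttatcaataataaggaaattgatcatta
Hoxa7 promoter: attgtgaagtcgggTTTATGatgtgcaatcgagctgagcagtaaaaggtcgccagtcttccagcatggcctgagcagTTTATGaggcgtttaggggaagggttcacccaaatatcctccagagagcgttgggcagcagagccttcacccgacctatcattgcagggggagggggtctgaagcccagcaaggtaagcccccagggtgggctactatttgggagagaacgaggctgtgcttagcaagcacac

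TTTATG was present in these 2 of the 4 member promoters, 2 times in each, and in 10.8% of all 32851 promoters of the table. In Hoxa7 the matches began 236 and 173 bases before the start, and in Hoxb8 they began 157 and 143 bases before it. TATAAA was in 1 of the 4, Hoxb8, and in 12.4% of all. The retinoic acid receptor half-site AGGTCA was in 1 of the 4, Hoxd8, and in 14.02% of all, and the Pbx and Hox site TGATTNAT was in 0 of the 4 and in 2.82% of all. The motifs were searched on both strands and none of the matches overlapped. The Hoxa6 promoter stood apart in its CpG dinucleotides, with 24 in 250 bases against 12 in Hoxb8, 7 in Hoxa7 and 6 in Hoxd8, where the median of all promoters was 6. These matches and counts describe the letters only.

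Levels are given as log2 of the processed intensity minus that of the array's 75th percentile, so that 0 is the 75th percentile of an array, and a level is compared only with other levels of the same probe. Adjusted p-values are from limma, fitted over all 15 arrays and adjusted by the Benjamini-Hochberg method over all 25139 genes, with a threshold of 0.05. The 15 arrays had 74.4% to 80.0% of probes well above background, a call of the scanner software that a spot exceeds its local background. Of the 4 slides, each of slides 1 to 3 held every group, and slide 4 held no sh4 array with retinoic acid. The software rated 3 arrays as needing evaluation (sh4 with retinoic acid replicate 1, sh4 replicate 3 and shCTR replicate 2), and results that changed without them are given with that value. The 12 ES cell markers, Pou5f1 and Nanog among them, were well above background on every array of each group, and 12 of 12 fell with retinoic acid in shCTR; their hairpin differences are given with the other markers. Bulk RNA cannot tell fewer cells of a type from less RNA per cell.

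The central Hox genes were strongly higher after retinoic acid. In shCTR cells 7 of the 8 rose, from 4.01-fold for Hoxa7 to 204-fold for Hoxb6 and at least 202-fold for Hoxb8, and 0 fell. In all genes tested 29% rose and 33.5% fell (62.4% in either direction). The median log2 difference of the 8 was 4.19, against -0.12 over all genes. In sh4 cells the same comparison called 7 of 8 higher, with a median of 4.73 against -0.12, where 27.1% of all genes rose and 31.6% fell (58.6% in either direction). For 7 members in shCTR and for 7 in sh4 the treated and untreated arrays did not overlap, against 59.9% and 57.9% of all genes. Hoxb8 is in each of these counts of 7, called and not overlapping. It entered the test through its treated arrays alone, so it carries no weight in them. The 2 comparisons use different arrays, and the interaction below gives the test of their difference.

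**Figure D1:**
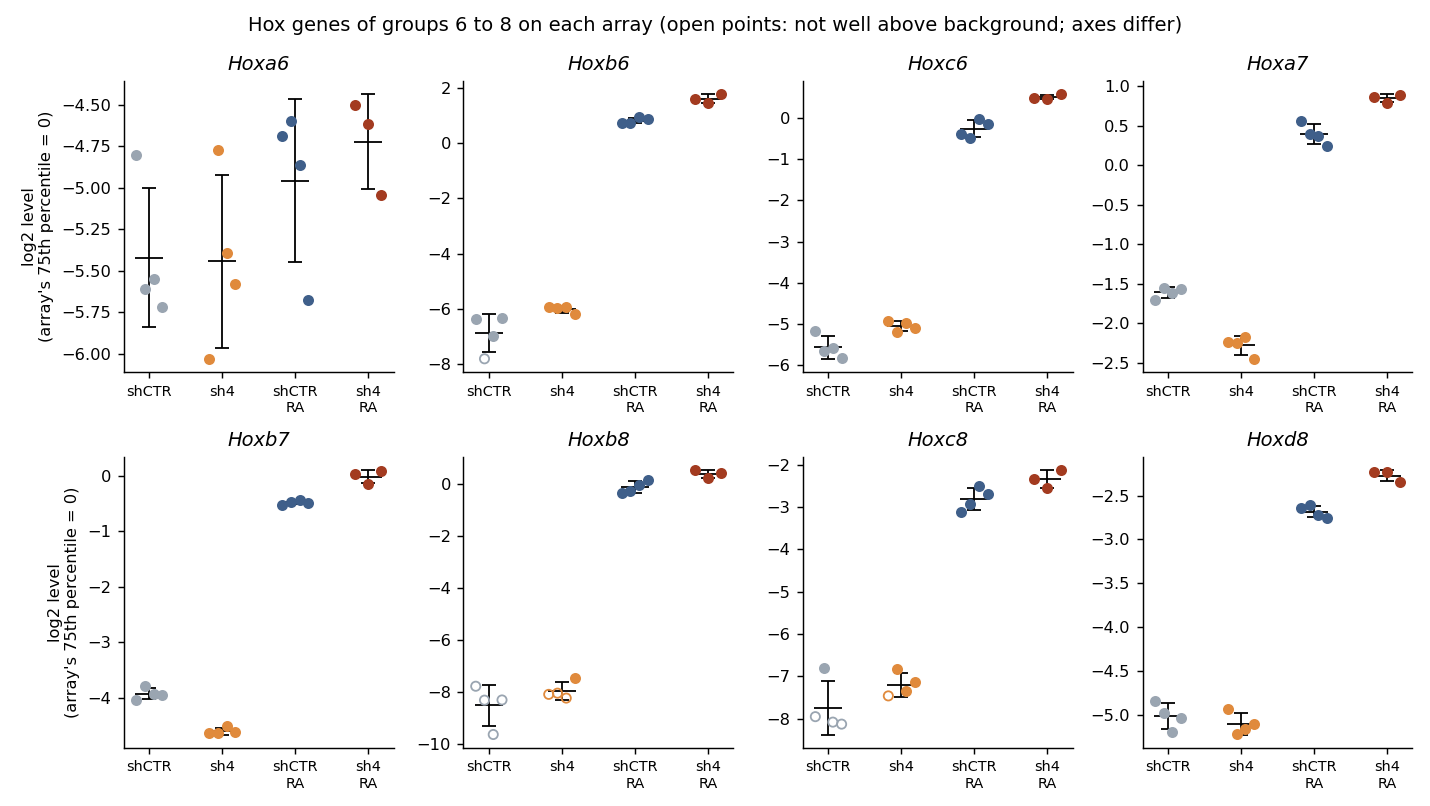
Log2 level of each of the 8 genes on each of the 15 arrays (vertical axis, 0 is the array's 75th percentile, with its own range in each panel) by group (horizontal axis), with bars for the mean and SD of 4 arrays, or 3 for sh4 with retinoic acid; open points were not well above background. The treated arrays stand above the untreated ones for every gene but Hoxa6, and for Hoxa7 and Hoxb7 the untreated sh4 arrays lie below the untreated shCTR arrays.

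Within group 6, Hoxb6 and Hoxc6 rose and the test did not call Hoxa6. Hoxb6 levels on the 4 untreated shCTR arrays were -6.36, -7.80, -6.96 and -6.31, and on the 4 treated ones they were 0.73, 0.74, 0.93 and 0.86. In sh4 they were -5.93, -5.97, -5.93 and -6.19 untreated and 1.61, 1.45 and 1.76 treated. The lowest treated array was far above the highest untreated one under either hairpin, and the probe was well above background on 3 of the 4 untreated shCTR arrays. The difference was 7.67 ± 0.25 (SE) in shCTR (adjusted p = 9.2e-12) and 7.61 ± 0.27 in sh4 (adjusted p = 3.4e-11).

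Hoxc6, the group 6 gene of the C cluster, was at -5.16, -5.65, -5.59 and -5.83 untreated in shCTR and at -0.39, -0.49, -0.03 and -0.16 treated. In sh4 it was at -4.93, -5.19, -4.97 and -5.08 untreated and at 0.47, 0.46 and 0.56 treated. Again no treated array came near an untreated one. The rise was 5.29 ± 0.13 in shCTR (adjusted p = 7.9e-13) and 5.54 ± 0.15 in sh4 (adjusted p = 2.1e-12).

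Hoxa6, a neighbour of Hoxa5 and Hoxa7, stayed low in every group. Its levels in shCTR were -4.80, -5.61, -5.55 and -5.72 untreated and -4.69, -4.60, -4.86 and -5.68 treated. In sh4 they were -6.03, -4.77, -5.39 and -5.58 untreated and -4.50, -4.62 and -5.04 treated. All 4 groups overlapped, although the probe was well above background on all 15 arrays. The retinoic acid difference was 0.46 ± 0.30 in shCTR (adjusted p = 0.20, 95% interval -0.12 to 1.05) and 0.72 ± 0.32 in sh4 (adjusted p = 0.072, interval 0.09 to 1.35), so a rise of about 2-fold lies within both intervals. Single arrays decide this call: without shCTR replicate 4 in retinoic acid the shCTR difference was 0.70 (adjusted p = 0.047), and in sh4 it was called without that array (adjusted p = 0.043), without sh4 replicate 2 (0.95, adjusted p = 0.019) and with the replicate number as a block (0.82, adjusted p = 0.034). With the scaling percentile taken over probes detected on every array it was 0.84 (adjusted p = 0.041). Other background treatments gave smaller differences under both hairpins. With normexp correction, given below, they were -0.01 in shCTR (adjusted p = 0.94) and 0.28 in sh4 (adjusted p = 0.19). In the authors' deposited table they were 0.07 in shCTR (adjusted p = 0.58) and 0.24 in sh4 (adjusted p = 0.085).

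Both group 7 genes were well above background on every untreated array, as were Hoxa6, Hoxc6 and Hoxd8. Hoxa7 was at -1.70, -1.55, -1.62 and -1.56 untreated in shCTR and at 0.56, 0.40, 0.38 and 0.25 treated. In sh4 it was at -2.24, -2.25, -2.17 and -2.45 untreated and at 0.87, 0.80 and 0.89 treated. The rise was 2.01 ± 0.08 in shCTR (4.01-fold, adjusted p = 4.6e-11) and 3.13 ± 0.08 in sh4 (8.75-fold, adjusted p = 2.4e-12).

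Hoxb7, its paralogue in the B cluster, followed the same order of groups. Levels were -4.04, -3.78, -3.93 and -3.94 untreated in shCTR and -0.53, -0.47, -0.44 and -0.48 treated. In sh4 they were -4.63, -4.64, -4.51 and -4.62 untreated and 0.02, -0.15 and 0.08 treated. For both group 7 genes the levels ran, from lowest to highest, untreated sh4, untreated shCTR, treated shCTR and treated sh4, and no neighbours in that order overlapped. The rise of Hoxb7 was 3.44 ± 0.07 in shCTR (10.9-fold, adjusted p = 1.1e-13) and 4.59 ± 0.07 in sh4 (24.0-fold, adjusted p = 3.3e-14).

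In group 8, Hoxb8, known for its part in trunk patterning and in blood progenitors, went from near background to a level close to the 75th percentile of the array. Its levels were -7.77, -8.31, -9.63 and -8.30 untreated in shCTR, well above background on 0 of 4 arrays, and -0.36, -0.26, -0.04 and 0.15 treated. In sh4 they were -8.09, -8.04, -8.23 and -7.46 untreated, well above background on 1 of 4, and 0.51, 0.23 and 0.42 treated. Untreated and treated arrays stood far apart. The rise was at least 202-fold in shCTR, taking for each untreated array the lowest signal that counts as well above background, or the probe's own where higher; the difference in the fit was 8.38 ± 0.31 (adjusted p = 3.2e-11), and 8.34 ± 0.34 in sh4 (adjusted p = 1.1e-10), where 3 of the 4 untreated signals were not well above background and the size is no more exact. Hoxb8 entered the test through its treated arrays alone, so its call carries no weight as a count.

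Hoxc8 and Hoxd8 also rose under both hairpins. Hoxc8 was at -7.96, -6.79, -8.08 and -8.13 untreated in shCTR, well above background on replicate 2 alone, and at -3.12, -2.92, -2.51 and -2.70 treated. In sh4 it was at -7.46, -6.82, -7.36 and -7.15 untreated and at -2.34, -2.54 and -2.12 treated. Its rise was 4.93 ± 0.27 in shCTR (adjusted p = 1.4e-09) and 4.86 ± 0.29 in sh4 (adjusted p = 5e-09), with treated and untreated arrays apart under both hairpins. The size in shCTR is measured against 3 of 4 arrays that were not well above background, and with normexp correction, given below, it was 1.75.

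Hoxd8, the only member in the D cluster, was at -4.84, -4.98, -5.20 and -5.03 untreated in shCTR and at -2.65, -2.61, -2.72 and -2.76 treated. In sh4 it was at -4.93, -5.21, -5.16 and -5.10 untreated and at -2.24, -2.23 and -2.35 treated. The rise was 2.33 ± 0.08 in shCTR (5.03-fold, adjusted p = 1.9e-11) and 2.83 ± 0.09 in sh4 (7.10-fold, adjusted p = 1.0e-11).

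The size of these rises depended on how background was treated. With normexp correction, which adds an offset of 50 to each signal, every call stood but the shCTR differences were 4.05 for Hoxb8, 4.96 for Hoxb6, 3.68 for Hoxc6, 1.75 for Hoxc8, 2.72 for Hoxb7 and 1.33 for Hoxd8. Hoxa7, with an intensity of 475 to 586 on the untreated shCTR arrays, moved to 1.85. Every fold given as at least a value holds for the processed intensity only. With normexp correction Hoxb8 rose 16.6-fold in shCTR, below its bound of 202-fold.

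**Figure D2:**
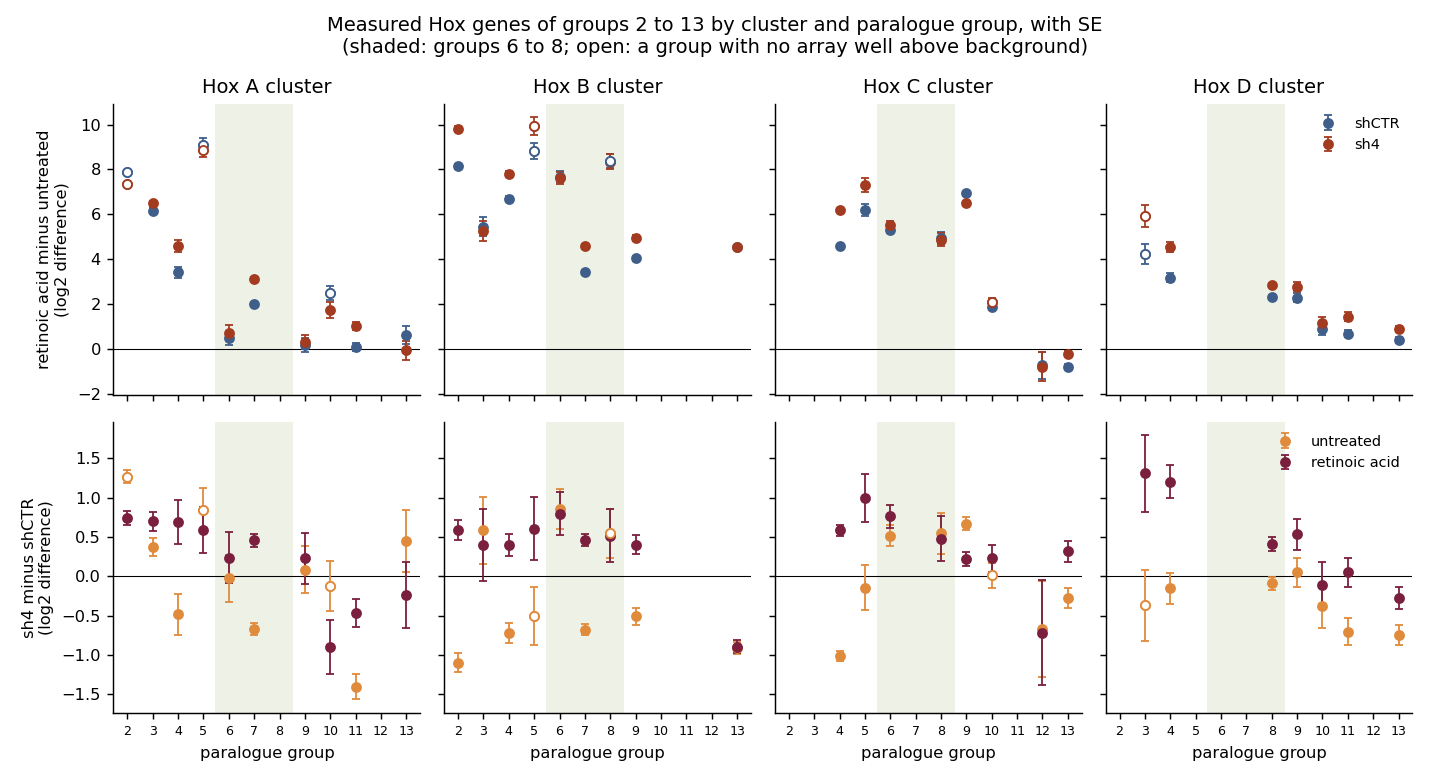
Log2 difference, with SE, of every measured Hox gene of groups 2 to 13 (vertical axis) by paralogue group (horizontal axis) in each cluster; the upper panels show retinoic acid minus untreated for each hairpin and the lower panels sh4 minus shCTR untreated and in retinoic acid, with groups 6 to 8 shaded; an open point compares with a group that had no array well above background, so its size is not exact. Hoxa6 lies near 0 in shCTR between Hoxa5, an open point, and Hoxa7 at 2.01.

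Along the clusters the members and their neighbours had these differences with retinoic acid in shCTR. In the A cluster Hoxa5, well above background on no untreated array, rose at least 195-fold, Hoxa6 was at 0.46, Hoxa7 rose by 2.01, and Hoxa9 was at 0.17 ± 0.30 (adjusted p = 0.67). In the B cluster Hoxb5, also well above background on no untreated array, rose at least 286-fold and Hoxb9 rose by 4.04 ± 0.11, beside 7.67 for Hoxb6, 3.44 for Hoxb7 and at least 202-fold for Hoxb8. In the C cluster Hoxc5 rose by 6.19 ± 0.28 and Hoxc9 by 6.95 ± 0.08, beside 5.29 for Hoxc6 and 4.93 for Hoxc8, and in the D cluster Hoxd4 rose by 3.17 ± 0.20 and Hoxd9 by 2.29 ± 0.18 beside 2.33 for Hoxd8. Differences between genes were not tested. Outside groups 6 to 8, all 5 genes measured in groups 2 and 3 and all 7 in groups 4 and 5 rose in shCTR. The median of groups 4 and 5 was 6.19. Those well above background on no untreated array, such as Hoxa2, Hoxa5 and Hoxb5, entered the test through treated arrays alone. Their calls carry no weight as counts. In groups 9 to 13, 9 of 14 rose and 1 fell (median 0.78). The medians of the members, of groups 4 and 5 and of groups 9 to 13 were the same with genes not well above background on any untreated shCTR array set at their bound.

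The files list start positions of 370 for the Hoxa6 probe and 268 for the Hoxc8 probe and of 1001 to 2581 for the other members; the base they count from is not stated there. Labelling began from oligo-dT, at the 3′ end of the transcript, and the part of probe position in the Hoxa6 values was not tested. The transcript 2700086A05Rik, whose probe lies between those of Hoxa6 and Hoxa7 on the same strand, was well above background on no untreated array and rose at least 2.42-fold in shCTR and at least 2.98-fold in sh4. Next to the Hoxb7 probe, on the opposite strand, 0610040B09Rik rose by 8.20 ± 0.47 in shCTR and by 8.29 ± 0.51 in sh4, with 1 untreated shCTR array not well above background. Array probes read 1 strand, so 0610040B09Rik is measured separately from Hoxb7. Whether the 2700086A05Rik probe reads RNA shared with Hoxa6 or Hoxa7, on its own strand, was not tested.

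In untreated cells the hairpin moved the group 7 genes down. Hoxa7 fell by 0.67 ± 0.08 on the log2 scale (adjusted p = 1.7e-05), to 62.9% of its shCTR level, and Hoxb7 fell by 0.68 ± 0.07 (adjusted p = 4.6e-06), to 62.5%. Hoxb6 rose by 0.85 ± 0.25 (adjusted p = 0.021) and Hoxc6 rose by 0.52 ± 0.13 (adjusted p = 0.010). That is 2 of 8 lower and 2 of 8 higher, beside 14.1% of all genes lower, 14.4% higher and 28.5% in either direction, and a median of 0.25 against 0.02 over all genes. The 2 rises did not hold in every setting.

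The group 7 decrease was seen on each slide. On slides 1 to 4 Hoxa7 differed by -0.53, -0.70, -0.56 and -0.89 and Hoxb7 by -0.59, -0.86, -0.58 and -0.68. The sh4 and shCTR arrays did not overlap for either gene. Over the other ways of processing, the Hoxa7 difference ranged from -0.69 to -0.56 and the Hoxb7 difference from -0.73 to -0.41, all past the threshold.

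The Hoxb6 and Hoxc6 rises were lost with other background treatments. Untreated intensities were 7.72 to 26.3 for Hoxb6, well above background on 7 of 8 arrays, and 26.7 to 56.4 for Hoxc6, well above background on all 8. Hoxb6 arrays did not overlap, but the gap was small, from -6.31 for the highest shCTR array to -6.19 for the lowest sh4 array, and within slides the difference ran from 0.12 to 1.83. Hoxb6 was -0.01 with normexp correction (adjusted p = 0.98) and 0.15 in the authors' deposited table (adjusted p = 0.26). It also missed the threshold without shCTR replicate 3 (adjusted p = 0.052), without the 3 arrays rated as needing evaluation (0.51, adjusted p = 0.053), with quantile normalisation (adjusted p = 0.061) and with only the 2 groups in the fit (adjusted p = 0.096). Hoxc6 was 0.03 with normexp (adjusted p = 0.91), 0.15 in the deposited table (adjusted p = 0.33), and 0.46 without the 3 arrays (adjusted p = 0.087).

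The other 4 members were not called in untreated cells. Hoxb8 differed by 0.55 ± 0.31 (adjusted p = 0.24), from levels that were not well above background on 7 of the 8 arrays. Hoxc8 differed by 0.55 ± 0.27 (adjusted p = 0.16), which depended on 1 array and on the background treatment. Replicate 2 of shCTR was at -6.79 against -8.13 to -7.96 for the other shCTR arrays, which were not well above background. Without that array the difference was 0.86 (adjusted p = 0.0024). Without the 3 arrays rated as needing evaluation, of which it is 1, the difference was 0.91 (adjusted p = 0.0068). With normexp correction the Hoxc8 difference was -0.07 (adjusted p = 0.77), and in the authors' deposited table it was 0.14 (adjusted p = 0.40). Hoxd8 differed by -0.09 ± 0.08 (adjusted p = 0.54, 95% interval -0.25 to 0.07) and Hoxa6 by -0.02 ± 0.30 (adjusted p = 0.98, interval -0.61 to 0.56), so the Hoxd8 interval leaves room only for a small change and that of Hoxa6 does not.

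**Figure D3:**
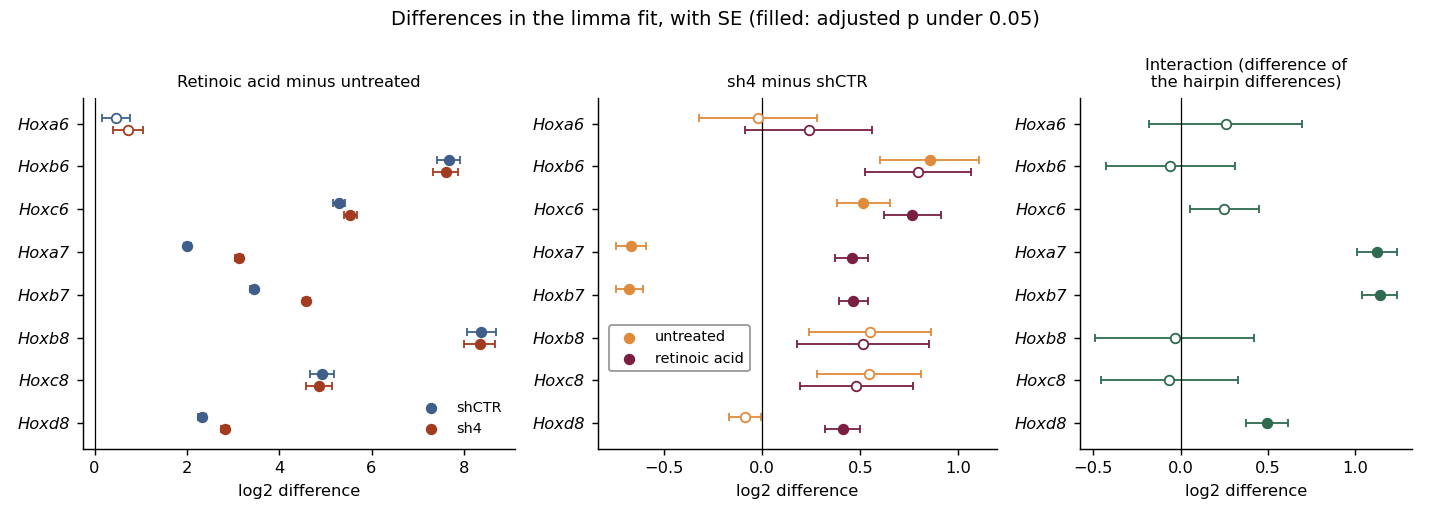
Log2 differences with SE (horizontal axis) for the 8 genes (vertical axis): retinoic acid minus untreated under each hairpin, sh4 minus shCTR without and with retinoic acid, and the interaction; filled points had an adjusted p under 0.05. Hoxb8 was well above background on no untreated shCTR array, so its sizes there are not exact. Hoxa7 and Hoxb7 lie at -0.67 and -0.68 in untreated cells and both at 0.46 in retinoic acid, and their interactions of 1.12 and 1.14 are the largest of the 8.

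In retinoic acid the hairpin difference pointed upward for all 8 members. Hoxc6 rose by 0.77 ± 0.15 (1.70-fold, adjusted p = 0.0018), Hoxa7 by 0.46 ± 0.08 (1.37-fold, adjusted p = 0.0014), Hoxb7 by 0.46 ± 0.07 (1.38-fold, adjusted p = 4.9e-04) and Hoxd8 by 0.41 ± 0.09 (1.33-fold, adjusted p = 0.0045). That is 4 of 8 higher and 0 lower, beside 10.9% of all genes higher and 10.3% lower (21.2% in either direction). The median of the 8 was 0.47, against 0.04 over all genes. For 6 members the sh4 and shCTR arrays did not overlap, against 32.4% of all genes; in untreated cells that held for 3 members, against 28.3%.

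The 4 members not called in retinoic acid had wider errors. Hoxb6 differed by 0.79 ± 0.27 (adjusted p = 0.055), with sh4 arrays at 1.45 to 1.76 and shCTR arrays at 0.73 to 0.93 and so no overlap. The fit shares 1 estimate of spread over all groups, and this gene's untreated shCTR arrays spread most: without shCTR replicate 2, an untreated array, its adjusted p was 0.0019, without replicate 1 or 4 of that group it was 0.042 or 0.038, without the 3 arrays rated as needing evaluation it was 0.014 (difference 0.79), with only the 2 treated groups in the fit it was 0.0020, and with the slide as a block it was 0.039. With normexp correction it was 0.68 (adjusted p = 0.0064). Hoxb8 differed by 0.51 ± 0.34 (adjusted p = 0.36, or 0.047 with only the 2 treated groups in the fit), Hoxc8 by 0.48 ± 0.29 (adjusted p = 0.30) and Hoxa6 by 0.24 ± 0.32 (adjusted p = 0.73). In the authors' deposited table Hoxb6, Hoxb8 and Hoxc8 passed as well, at 0.70, 0.44 and 0.42, which made 7 of 8. On slides 1, 2 and 3 the difference was above 0 for each of the other 7 members, and for Hoxa6 it was 0.19, -0.02 and -0.18.

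**Figure D4:**
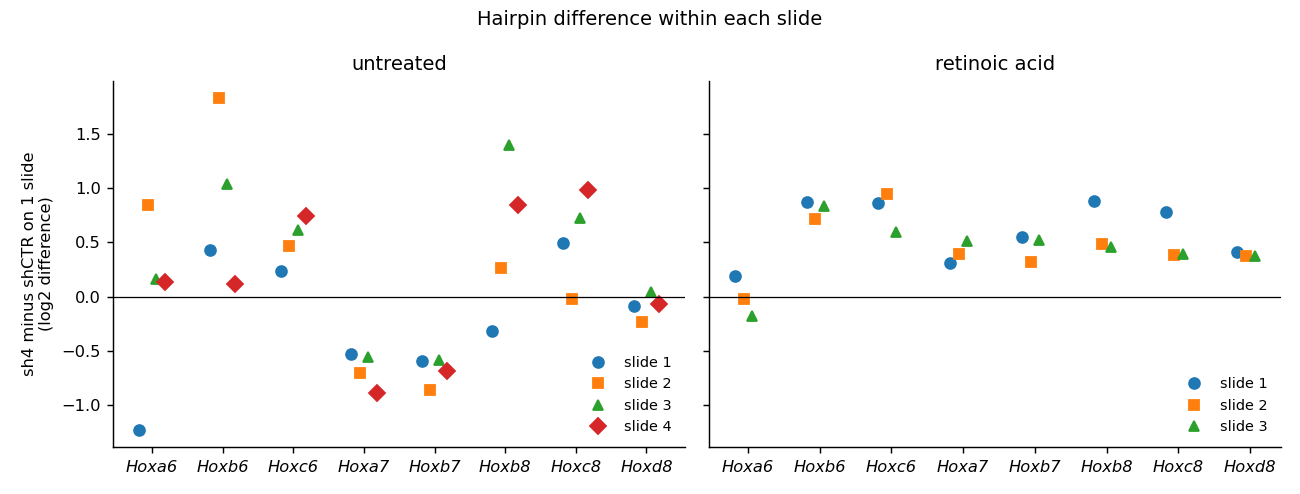
Difference sh4 minus shCTR between arrays of the same slide, in log2 units (vertical axis), for the 8 genes (horizontal axis), untreated on 4 slides and in retinoic acid on the 3 slides that held both hairpins. Hoxa7 and Hoxb7 are below 0 on all 4 slides untreated and above 0 on all 3 in retinoic acid, and Hoxa6 spreads on both sides of 0.

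The interaction tests whether the hairpin difference itself changed with retinoic acid. It was 1.12 ± 0.11 for Hoxa7 (adjusted p = 1.3e-05) and 1.14 ± 0.10 for Hoxb7 (adjusted p = 3.7e-06), so that the retinoic acid rise of these genes was 2.18-fold and 2.21-fold as large in sh4 as in shCTR. Hoxd8 had 0.50 ± 0.12 (adjusted p = 0.0099), which fell short without the 3 arrays rated as needing evaluation (0.45, adjusted p = 0.082). Thus 3 of 8 members were called higher and 0 lower, beside 10.2% of all genes higher and 10.2% lower (20.5% in either direction), and the median of the 8 was 0.25 against 0.01.

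For the other 5 members the interaction did not pass, and the intervals are wide. It was 0.25 ± 0.20 for Hoxc6 (adjusted p = 0.48, 95% interval -0.14 to 0.64) and 0.26 ± 0.44 for Hoxa6 (adjusted p = 0.81). For Hoxb6 it was -0.06 ± 0.37 (interval -0.78 to 0.67), for Hoxb8 -0.04 ± 0.46 and for Hoxc8 -0.06 ± 0.39. The 1.12 of Hoxa7 lay above the intervals of Hoxb6, Hoxc6, Hoxb8 and Hoxc8 and at the upper edge of that of Hoxa6. The intervals come from the SE of the main fit by the normal distribution, and these differences between genes were not tested. The values depended on background correction. With normexp Hoxa7 was at 0.97, Hoxb6 at 0.69 (adjusted p = 0.041) and Hoxc6 at 0.73 (adjusted p = 0.025). Hoxb8 was then at 0.56 (adjusted p = 0.22) and Hoxc8 at 0.51 (adjusted p = 0.14). In the authors' deposited table Hoxb6 was at 0.55 (adjusted p = 0.0072) and Hoxc6 at 0.63 (adjusted p = 0.0060). There Hoxb8 was at 0.36 (adjusted p = 0.21) and Hoxc8 at 0.28 (adjusted p = 0.25).

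Other Hox genes shared the order of groups seen for Hoxa7 and Hoxb7. Hoxc4 fell by 1.01 ± 0.06 in untreated sh4 cells (adjusted p = 4.7e-08) and rose by 0.59 ± 0.07 in retinoic acid (adjusted p = 3.7e-05), and Hoxb9 fell by 0.51 ± 0.11 (adjusted p = 0.0031) and rose by 0.40 ± 0.12 (adjusted p = 0.028). Hoxb2 fell by 1.10 ± 0.12 (adjusted p = 7.1e-06) and rose by 0.59 ± 0.12 (adjusted p = 0.0040). Of groups 2 and 3, 2 of 5 were higher and 1 lower untreated and 3 of 5 higher in retinoic acid. Of groups 4 and 5, 1 of 7 was higher and 2 lower untreated and 3 of 7 higher in retinoic acid; of groups 9 to 13, 1 of 14 was higher and 5 lower untreated and 1 higher and 1 lower in retinoic acid. The interaction was called higher for 4 of 7 and lower for 0 in groups 4 and 5 (median 1.13). For the members these were 3 of 8 and 0, with a median of 0.25. In groups 2 and 3 it was higher for 1 of 5 and lower for 1, and in groups 9 to 13 higher for 3 of 14 and lower for 1. Of all genes, 10.2% were higher and 10.2% lower. Among the untreated calls, Hoxa2 and Hoxa5 were higher from signals well above background on no untreated array.

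By likeness over the 15 arrays, Hoxb7 was closest to Cerk, Hmgn3 and Hoxc4 (Pearson r = 0.999 for each) and Hoxa7 to Nfix, Plxna2 and Hmgn3 (r = 0.996, 0.995 and 0.995). Hoxb8 was closest to Bach2, Thsd4 and Itga11 (r = 0.997 for each), and Hoxb6 to Hacd1, Tshz1 and Chst14 (r = 0.998, 0.997 and 0.996). Hoxc6 was closest to Smoc2, Gm1673 and Zadh2 (r = 0.998 for each), Hoxc8 to Slc24a3, Ankrd2 and Nr2f2 (r = 0.996, 0.995 and 0.995), and Hoxd8 to Tnnc1, Bnc1 and Nhsl2 (r = 0.996 for each). Among Hox genes outside groups 6 to 8 the closest was Hoxc4 for Hoxa7 (r = 0.994) and Hoxb7, Hoxa3 for Hoxc8 (r = 0.994) and Hoxb4 for Hoxd8 (r = 0.995). Hoxa6 had no such partner: its closest named genes were B3gnt4 (r = 0.840) and Kirrel3 (r = 0.828), and its r with the other members ran from 0.589 to 0.610, where the other 7 had 0.950 to 0.996 among themselves. Every array shares the treatment difference, which by itself gives a high r to any 2 genes that respond, and these values describe the pattern only.

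Genes that act with or upstream of the central Hox genes moved in several directions. Of 9 Hox cofactors, which bind DNA together with Hox proteins, 6 rose and 2 fell with retinoic acid in shCTR, led by Meis1 at 5.84 ± 0.09 and Meis2 at 5.45 ± 0.06. Between hairpins, 3 were higher and 1 lower in untreated sh4 cells, with Meis2 up by 2.33 ± 0.06, and 4 were higher and 0 lower in retinoic acid, with Pbx3 up by 0.52 ± 0.08. Of the Cdx genes, Cdx1 fell by 1.02 ± 0.14 in untreated sh4 cells (adjusted p = 6.7e-05) and was at -0.02 ± 0.15 in retinoic acid (adjusted p = 0.96). Cdx2 rose by 4.16 ± 0.14 untreated (adjusted p = 2.6e-10) and fell by 0.55 ± 0.15 in retinoic acid (adjusted p = 0.020), and Cdx4 was not among the genes tested. Of 10 measured Cdx and trunk progenitor genes, 4 rose and 4 fell with retinoic acid in shCTR. Of 16 direct targets of retinoic acid, 13 rose and 3 fell there, led by Cyp26b1 at 9.91 ± 0.14 and Cyp26a1 at 9.35 ± 0.12, enzymes that break retinoic acid down. Between hairpins, 5 of the 16 were higher and 7 lower in untreated sh4 cells, and 6 were higher and 1 lower in retinoic acid. Their summed level was 5.78 to 6.06 in shCTR and 4.96 to 5.11 in sh4 untreated, and 7.31 to 7.74 and 7.81 to 8.05 in retinoic acid, the same order of groups as for Hoxa7 and Hoxb7; its part in the Hox differences was not tested.

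Markers of other cell types moved with treatment and hairpin, and their part in the Hox differences was not tested. The summed level of 14 fibroblast (feeder cell) markers, on the same log2 scale, was 1.41 to 1.58 in untreated shCTR and 0.57 to 0.64 in untreated sh4 arrays, and 4.21 to 4.63 and 4.73 to 4.82 in retinoic acid, an order of groups like that of Hoxa7 and Hoxb7. Of these markers 7 were higher and 4 lower in untreated sh4 cells (median difference 0.43). In retinoic acid 2 were higher and 2 lower (median 0.08). The sum weighs bright markers most, and untreated it was lower in sh4 although more markers were higher than lower. In untreated shCTR cells Col3a1, Dcn, Lum and Postn were well above background on no array, and in untreated sh4 cells this held for Postn.

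The summed level of the 12 ES cell markers was 8.30 to 8.50 in shCTR and 7.98 to 8.14 in sh4 untreated, and 5.08 to 5.12 and 4.39 to 4.76 in retinoic acid. In sh4, 1 was higher and 4 were lower untreated (median difference -0.39), and 1 was higher and 7 were lower in retinoic acid (median -0.80). Of the 8 members, 4 were higher and 0 lower in sh4 with retinoic acid, beside 10.9% and 10.3% of all genes. The 12 neural markers summed to 2.71 to 3.07 and 2.42 to 2.63 untreated and to 3.42 to 3.51 and 3.46 to 3.60 in retinoic acid, with 3 higher and 2 lower in untreated sh4 cells and 3 higher and 1 lower in retinoic acid.

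The summed level of 12 primitive and visceral endoderm markers was 0.45 to 0.63 in shCTR and -0.95 to -0.88 in sh4 untreated, and 5.83 to 6.05 and 3.81 to 3.83 in retinoic acid. In sh4, 8 of 12 were lower untreated and 12 of 12 in retinoic acid, while 0 were higher in either. Ttr was well above background on no untreated array, and Afp on none in untreated sh4. The 9 trophectoderm markers summed to 2.89 to 3.20 in shCTR and 5.69 to 5.99 in sh4 untreated, with 8 of 9 higher, and to 7.48 to 7.70 and 7.45 to 7.64 in retinoic acid, with 3 higher and 3 lower. Elf5 was well above background on no untreated shCTR array. The 12 mesoderm markers summed to 4.20 to 4.52 in shCTR and 4.50 to 4.74 in sh4 untreated, and to 1.75 to 1.79 and 1.34 to 1.51 in retinoic acid, with 1 higher and 3 lower in untreated sh4 cells and 0 higher and 2 lower in retinoic acid.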

How the data were processed

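Total RNA was labelled with Cy3 from an oligo-dT primer, per the labels, and scanned with Feature Extraction 10.7.3.1, per the file headers. The deposited scanner files hold processed intensity per spot, background-subtracted by that software. The authors' deposited value table holds log2 values, which matched normexp (offset 50) and quantile normalisation of the mean signal. Control spots and marked spots were left out. Levels were log2 processed intensity minus each array's 75th percentile. Probes had to be well above background on 3 arrays of 1 group; each gene was read by its brightest kept probe on average, and 5061 genes had several. Symbols were updated by accession to RefSeq for 26055 of 39429 probes, and 13374 kept the files' name. limma 3.58.1 (R 4.3.3) fitted the 4 group means over 15 arrays, with Benjamini-Hochberg adjustment at 0.05; the fit was tested on simulated data.

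Same-numbered arrays shared a slide, except sh4 with retinoic acid replicates 3 and 4, on slides 2 and 3. Of pairs on 1 slide, 15 of 15 with the same number and 6 of 6 with different numbers had deviations correlated over 0.1. Their r ran from 0.115 to 0.607. On different slides this held for 18 of 57 pairs with different numbers and 3 of 6 with the same number. The slide is thus taken to pair the arrays. The main fit holds no slide term, and the slide as a block is among the other settings.

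The members and all gene lists were chosen with earlier results of these data known. Named genes are the members, the Hox genes next to them, Cdx1, Cdx2, Cdx4, Phf19, up to 3 of a list with the largest called change, and the 3 genes and the 1 Hox gene most like each member. Hoxa2 and Hoxb2 were named after their values were seen. Some results that this rule names are not reported here.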

Additional observations from a re-analysis of the deposited data

Results flagged for a closer look

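In 3 of 24 member and group combinations with 4 arrays, 1 array lay far from the other three, where chance marks about 1 in 20 groups. Hoxc8 in untreated shCTR cells was at -6.79 on replicate 2, the only array of that group on which it was well above background, against -8.13 to -7.96 on the others. Hoxb6 in untreated sh4 cells was at -6.19 on replicate 4, against -5.97 to -5.93. Hoxb7 in untreated sh4 cells was at -4.51 on replicate 3, against -4.64 to -4.62, a gap small beside the hairpin difference.

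The hairpin difference differed between untreated and treated cells, by the interaction term of the limma fit, for Hoxa7 (1.12, adjusted p = 1.3e-05), Hoxb7 (1.14, adjusted p = 3.7e-06) and Hoxd8 (0.50, adjusted p = 0.0099). For Hoxa7 and Hoxb7 every within-slide difference was below 0 untreated and above 0 in retinoic acid.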

How the results depend on the processing

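Of 1057 values of single members under 27 other settings, 1025 kept their direction where called and their side of the threshold. Part of this tally could not come out otherwise. Each member had 1 probe, so averaging the probes of a gene repeated the main differences. Leaving out an array of a group outside a comparison left its difference unchanged, and only its p-value could move. Untreated, the count of members past the threshold went from 4 to 2 with normexp correction and 2 in the deposited table. In retinoic acid the hairpin comparison went from 4 to 7 in the deposited table. The interaction went from 3 to 5 with normexp and 5 in the deposited table. Requiring a signal well above background on all 15 arrays took both retinoic acid counts from 7 to 4, with fewer members tested. Where a value was called in the main fit or in the other setting, the sign turned for Hoxb6 alone. It turned with normexp untreated (-0.0098, from 0.85) and, from -0.06, in the interaction with normexp (0.688) and in the deposited table (0.546). Signs of uncalled values turned too. With normexp, Hoxb8 untreated was at -0.12, Hoxc8 untreated at -0.07 and Hoxa6 with retinoic acid in shCTR at -0.01, all above 0 in the main fit. The interactions of Hoxb8 and Hoxc8, below 0 in the main fit, were 0.56 and 0.51 with normexp. Leaving out 1 array gave 3 to 5 members untreated, 4 to 5 for the hairpin in retinoic acid, 7 to 8 for retinoic acid under either hairpin and 3 for the interaction. The Hoxa7 interaction was 1.13 under a replicate block and 1.09 under a slide block, since the slide pairs the arrays. The replicate block gave 4, 4, 7, 8 and 3 members in the 5 comparisons, and changed no member's call but that of Hoxa6 in sh4. With normexp the number of genes past the threshold was 4645 in place of 7173 untreated, 3394 in place of 5332 in retinoic acid and 3053 in place of 5145 for the interaction; in other settings these counts stayed within 1.5 times. The median of all genes shifted by 0.127 and 0.122 in the retinoic acid comparisons with the percentile over detected probes. Scans of 3 or 4 arrays a group limit precision, and signals near background, as for Hoxb8, Hoxc8 and Hoxb6 untreated, limit the size of a fold. Fewer settings applied where a member or a group left the fit.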
